A study of Mus musculus with 3 samples.

Results

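The Tcl1 gene cluster of the mouse was examined in oocytes of females from a study of PCB118, a dioxin-like chlorinated biphenyl. Its 6 members, Tcl1 and Tcl1b1 to Tcl1b5, were chosen by gene name with values of these libraries already known, from 23376 gene names in all. Of the 6 genes, 5 had rows in the deposited tables and Tcl1b3 had none. The 5 genes filled 6 rows, since Tcl1b1 was listed under 2 assembled loci. The 3 libraries came from ICR females at 8 weeks of age: an unexposed control, a low PCB118 dose and a high PCB118 dose, each group being 1 library. The labels give no amounts for the doses and no number of animals or oocytes behind a library, while by the title of the series the mothers were exposed in pregnancy and the oocytes are those of their offspring. With 1 library per group there was no replicate check, no p-value is given, and each value describes a library and not a condition.

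TCL1 proteins are small beta-barrel proteins that bind the pleckstrin homology domain of the kinase AKT and raise its activity. In humans, TCL1A is best known as an oncogene of T-cell leukaemia that is switched on by chromosomal translocation. In the mouse, Tcl1 is expressed in lymphoid precursors, germ cells and early embryos. The mouse Tcl1b genes are tandem copies with a more restricted expression, best known from oocytes and early embryos.

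All 6 genes lie on chromosome 12 of GRCm38 (mm10), the build named for the files, within a stretch of 76780 bases from 105146014 to 105222793. Tcl1b2 (105146014 to 105155225), Tcl1b1 (105159690 to 105166625), Tcl1b5 (105176344 to 105181145), Tcl1b3 (105191043 to 105195612) and Tcl1b4 (105201957 to 105206993) follow each other on the plus strand. Tcl1 (105216750 to 105222793) lies at the end of the row on the minus strand, so that it faces Tcl1b4 tail to tail across 9756 bases. Each gene is protein coding in GENCODE M21 and has 4 exons in its longest transcript.

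The 250 bases before the RefSeq start of each gene (GRCm38.p6) are shown because they set Tcl1 apart from the Tcl1b copies by sequence, and the levels of Tcl1 and of the copies are described separately below. The windows are chr12:105222738-105222987 on the minus strand for Tcl1, and on the plus strand chr12:105146769-105147018 for Tcl1b2, chr12:105159454-105159703 for Tcl1b1, chr12:105176094-105176343 for Tcl1b5, chr12:105190795-105191044 for Tcl1b3 and chr12:105202145-105202394 for Tcl1b4. RefSeq and GENCODE place some starts differently. By the GENCODE positions above, the windows of Tcl1b2 and Tcl1b4 lie inside the gene, and those of Tcl1, Tcl1b1 and Tcl1b3 reach into it. Which start is used in these oocytes was not tested. Capitals mark the 2 longest runs of letters, equal in length, that all 5 Tcl1b windows share.
Tcl1: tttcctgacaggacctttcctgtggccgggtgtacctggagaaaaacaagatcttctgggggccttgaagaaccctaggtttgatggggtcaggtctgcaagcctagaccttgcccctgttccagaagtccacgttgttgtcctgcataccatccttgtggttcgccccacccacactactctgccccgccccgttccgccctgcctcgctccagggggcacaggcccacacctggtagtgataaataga
Tcl1b2: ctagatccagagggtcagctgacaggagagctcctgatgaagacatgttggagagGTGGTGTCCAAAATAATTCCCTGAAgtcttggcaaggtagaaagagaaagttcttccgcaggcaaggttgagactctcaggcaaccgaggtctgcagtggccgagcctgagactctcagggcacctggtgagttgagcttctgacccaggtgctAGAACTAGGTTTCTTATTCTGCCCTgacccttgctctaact
Tcl1b1: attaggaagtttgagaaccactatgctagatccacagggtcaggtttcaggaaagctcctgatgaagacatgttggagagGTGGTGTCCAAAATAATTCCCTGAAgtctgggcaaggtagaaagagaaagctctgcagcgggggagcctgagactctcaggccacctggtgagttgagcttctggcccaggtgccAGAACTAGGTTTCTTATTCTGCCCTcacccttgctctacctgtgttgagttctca
Tcl1b5: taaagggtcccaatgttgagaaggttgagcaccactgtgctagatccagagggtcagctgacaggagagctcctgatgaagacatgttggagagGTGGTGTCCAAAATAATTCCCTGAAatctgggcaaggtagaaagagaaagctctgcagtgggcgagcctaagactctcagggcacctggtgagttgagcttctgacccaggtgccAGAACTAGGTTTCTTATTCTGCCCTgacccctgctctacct
Tcl1b3: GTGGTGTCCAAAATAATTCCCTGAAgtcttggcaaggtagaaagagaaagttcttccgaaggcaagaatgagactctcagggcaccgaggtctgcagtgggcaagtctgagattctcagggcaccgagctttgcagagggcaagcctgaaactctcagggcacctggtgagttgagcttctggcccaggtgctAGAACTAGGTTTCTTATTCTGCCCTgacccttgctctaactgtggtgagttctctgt
Tcl1b4: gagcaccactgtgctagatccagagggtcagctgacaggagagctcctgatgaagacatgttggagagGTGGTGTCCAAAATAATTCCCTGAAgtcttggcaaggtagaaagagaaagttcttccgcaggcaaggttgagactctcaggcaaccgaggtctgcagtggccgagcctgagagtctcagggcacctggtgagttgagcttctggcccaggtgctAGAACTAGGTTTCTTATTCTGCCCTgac
Both runs had 25 bases and were in 5 of 5 Tcl1b windows. Among all 32851 promoter windows, searched on either strand, neither was in a window of another gene. Aligned end to end, Tcl1b windows were identical at 66.4 to 94% of bases over 10 pairs (median 78.2%), with Tcl1b2 and Tcl1b4 the closest pair. The shared runs lie at different distances from the start in the copies, and the part of this in the identities was not tested. Tcl1 was identical to the Tcl1b windows at 48.4 to 54.8% (5 pairs). The E-box CANNTG, searched on both strands, was found in all 6 windows and in 66.2% of all windows. The CCAAT box (CCAAT) was in the Tcl1b5 window alone of the 6, against 33.8% of all windows. TATAAA and the NOBOX element TAATTG, present in 12.4% and 7.17% of all windows, were in none of the 6. These matches are letters in a window, and no binding was measured.

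The coding sequences also set Tcl1 apart from the Tcl1b genes, but the closest pair was another. Tcl1b genes were identical to each other at 70.5 to 87.6% of the bases of the shorter sequence (median 78%), and to Tcl1 at 63.5 to 66.4%. Tcl1b3 and Tcl1b5 were the closest pair here and the least alike pair of upstream windows. The coding sequence had 579 bases in the longest annotated form of Tcl1 and between 351 and 387 bases in the Tcl1b genes. This likeness bears on how reads are assigned. Of all 50-base windows of the longest transcript, 29% in Tcl1b2, 34.1% in Tcl1b3, 20.8% in Tcl1b5, 13% in Tcl1b1 and 2.82% in Tcl1b4 also occurred in another gene of the cluster, and 0% in Tcl1. At 100 bases the shares were at most 9.09% (Tcl1b3). Neither the read length nor the handling of reads with several matches is given in the sources used here, so values of single Tcl1b copies, Tcl1b2, Tcl1b3 and Tcl1b5 above all, are less certain than that of Tcl1.

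Levels are FPKM, that is fragments counted per kilobase of transcript and scaled to library size, and can be compared between genes because they are per length. Each table came from 1 library, and no scaling between tables is stated. Log2 ratios were taken after adding 1 FPKM, which understates the change of low genes, and genes whose log2 ratio reached 1 or -1 (2-fold) were counted, which is no test but a rule of size. The background was made up of the 12151 names that averaged 1 FPKM or more across libraries, called expressed here. Of 20 oocyte markers, 18 were at 1 FPKM or more in every library, Ddx4 having no row and Sohlh1 staying under 1 FPKM. The markers summed to 10056 FPKM in control, 8642 FPKM at the low dose and 9598 FPKM at the high dose. Most of each sum was Dppa3 (4707, 4174 and 5342 FPKM) and Oosp1 (1749, 1216 and 1316 FPKM), so it says little of the other markers. Single markers differed in both directions. Gdf9, a growth factor secreted by oocytes, was lower at both doses (log2 ratios to control -4.06 and -1.77) and Bmp15, its partner, higher (1.90 and 1.67). Mos, a kinase of meiotic arrest, was higher at the low dose (4.11) and near control at the high dose (-0.11), and Figla had ratios of -0.38 and -1.18. The low values of genes with 1 annotated transcript put the depth at about 34700000 (control), 27900000 (low dose) and 31500000 reads (high dose). At that depth the 5 genes with rows stood on roughly 110 reads (Tcl1b5, low dose) to 27000 reads (Tcl1, high dose). In bulk RNA, fewer cells that express a gene and less RNA per cell cannot be told apart.

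Tcl1 was the gene of the cluster whose level differed most from control at the high dose. It was at 202 FPKM in the control library, 95.3 FPKM at the low dose and 609 FPKM at the high dose. Among the expressed genes it held rank 260 in control, rank 652 at the low dose and rank 58 at the high dose. The low dose library was thus the lowest of the 3 and the high dose library the highest. Its log2 ratio was -1.08 for low dose against control, 1.59 for high dose against control (3.02-fold higher) and 2.66 for high dose against low dose (6.40-fold higher). Of all expressed genes, 95.8% had a smaller ratio than Tcl1 at the high dose against control, and 5.06% had a smaller one at the low dose.

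The 4 Tcl1b genes with rows were lower in both exposed libraries than in control, and lowest at the low dose. Tcl1b1, the most abundant copy, was at 271 FPKM in control, 165 FPKM at the low dose and 176 FPKM at the high dose. Tcl1b4 had 145, 96.9 and 111 FPKM in the same order. These 2 genes stayed within 2-fold of control in both exposed libraries, Tcl1b1 having log2 ratios of -0.72 (low dose) and -0.62 (high dose), and Tcl1b4 of -0.58 (low dose) and -0.39 (high dose). Their ratio to each other, Tcl1b4 over Tcl1b1, was 0.535, 0.588 and 0.628 in control, low dose and high dose.

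Tcl1b2 and Tcl1b5 stood further below control at the low dose. Tcl1b2 was at 205 FPKM in control, 37.9 FPKM at the low dose and 154 FPKM at the high dose. Its low dose level was 5.40-fold lower than control (log2 ratio -2.40), and only 0.889% of expressed genes had a smaller ratio. In control and at the high dose Tcl1b2 lay near Tcl1b1, at 0.755 and 0.872 of its level, but at the low dose it was at 0.23 of it. Tcl1b5, the least abundant copy with a row, was at 14.7, 3.82 and 9.71 FPKM in control, low dose and high dose, and its log2 ratio to control was -1.70 (low dose) and -0.55 (high dose). Both genes are among those that share the most sequence with other copies, as given above, and its part in these values was not tested.

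**Figure D1:**
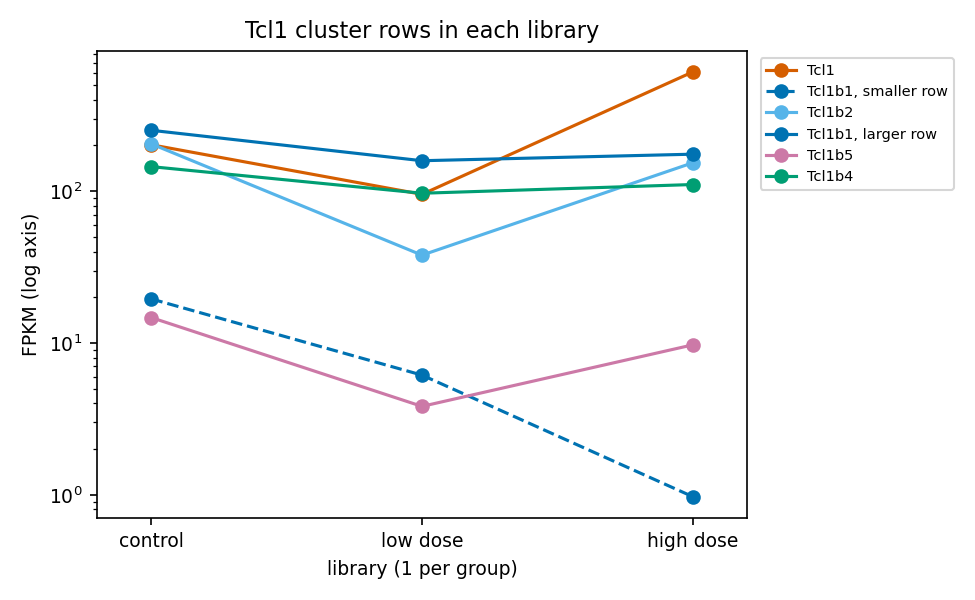
FPKM of each row of the Tcl1 cluster (log axis) in each of the 3 libraries, 1 library per group and so no error bars; lines join the values of a row. Tcl1 is highest at the high dose (609 FPKM), the Tcl1b2 and Tcl1b5 rows dip at the low dose, and the smaller Tcl1b1 row (dashed) is at 19.5, 6.14 and 0.973 FPKM.

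The 2 rows of Tcl1b1 did not run together. The larger row (locus number 10618) was at 252 FPKM in control, 159 FPKM at the low dose and 175 FPKM at the high dose. The smaller row (locus number 10616) was at 19.5 FPKM in control, 6.14 FPKM at the low dose and 0.973 FPKM at the high dose. The smaller row was thus 20-fold lower at the high dose than in control (log2 ratio -3.38), while the larger row was 1.44-fold lower (-0.52). Because the larger row held most of the signal, the summed value of Tcl1b1 followed it. The tables give no coordinates, so which part of the gene or of the region the smaller row covers is not known here. Tcl1b3, the copy between Tcl1b5 and Tcl1b4, had no row in any table and counts as 0 by the rule of joining, which is not a measurement that the gene was silent.

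Counted over the 6 members, at the low dose 0 were at least 2-fold higher than control and 3 were at least 2-fold lower (Tcl1, Tcl1b2 and Tcl1b5), where 14.5% and 5.84% of all expressed genes passed the rule in these directions. At the high dose, 1 member was higher than control (Tcl1) and 0 were lower, against 9.51% and 5.18% of all expressed genes. Between the exposed libraries, 3 members were higher at the high dose than at the low dose (Tcl1, Tcl1b2 and Tcl1b5) and 0 were lower, against 6.1% and 9.73%. A trimmed mean scaling moved the median of all genes at the low dose by -0.17 and gave 1316 higher and 946 lower genes, in place of 1766 and 710. The members were chosen from these same values, so the counts describe them and no more. The median log2 ratio of the 5 members with rows was -1.08, -0.41 and 1.15 in the 3 comparisons, beside 0.17, 0.08 and -0.07 for all expressed genes. The 3 comparisons draw on the same 3 libraries and are not independent of each other.

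**Figure D2:**
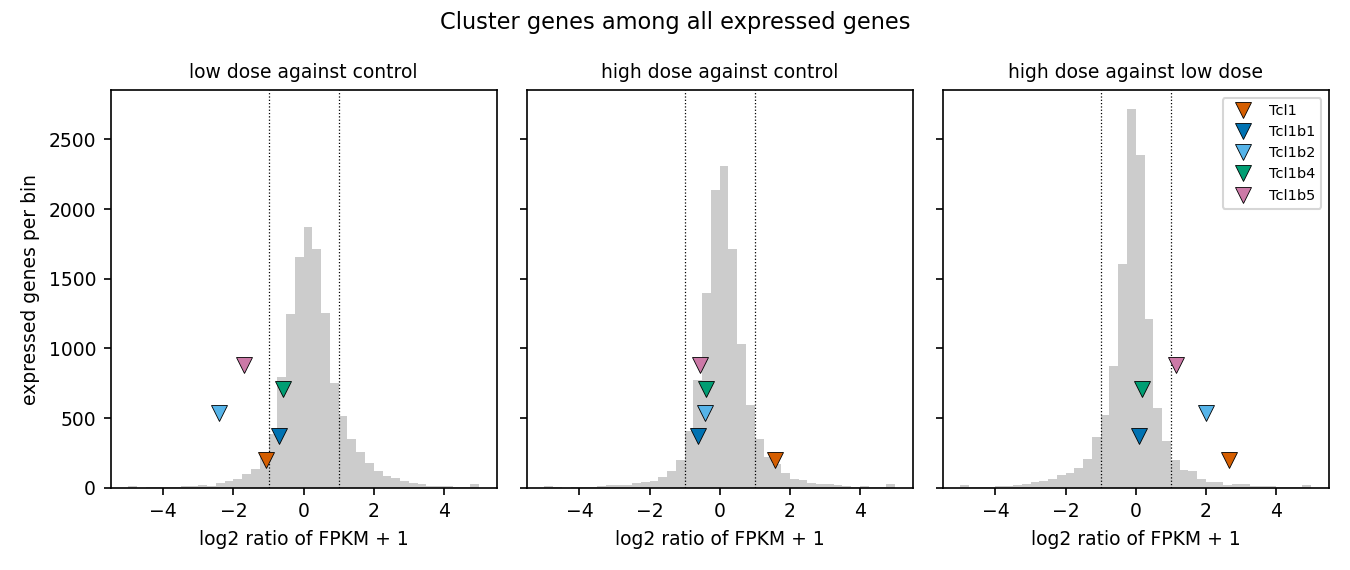
Log2 ratios of FPKM + 1 (x axis) of 12151 expressed genes as grey histograms (genes per bin, ratios beyond 5 in size drawn at the edge), with the 5 cluster genes that have rows as triangles whose height has no meaning; dotted lines mark 2-fold. At the low dose all 5 lie left of the median of all genes (0.17), and at the high dose Tcl1 alone lies right of the 2-fold line (1.59).

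At the high dose the make-up of the cluster differed from control more than its total did. Summed over the members, the level was 838 FPKM in control, 399 FPKM at the low dose and 1059 FPKM at the high dose. The summed log2 ratio was -1.07 for low dose against control, 0.34 for high dose against control and 1.41 for high dose against low dose. Tcl1 made up 24.1% of the sum in control and 23.9% at the low dose, but 57.5% at the high dose. Tcl1b1 was the largest part in control (32.4%) and at the low dose (41.3%) and held 16.6% at the high dose. The part of Tcl1b2 was 24.4% in control, 9.51% with the low dose and 14.5% with the high dose. Set against the 5 Tcl1b rows together, Tcl1 stood at 0.318 of their sum in control, 0.314 with the low dose and 1.35 with the high dose. In the low dose library Tcl1 and the summed Tcl1b genes were therefore lower by nearly the same factor (2.12-fold and 2.10-fold), whereas in the high dose library Tcl1 was 3.02-fold higher and the summed Tcl1b genes were 1.41-fold lower than control. How shared reads of the Tcl1b copies were assigned is not known here, and their part in the Tcl1b sum was not tested.

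**Figure D3:**
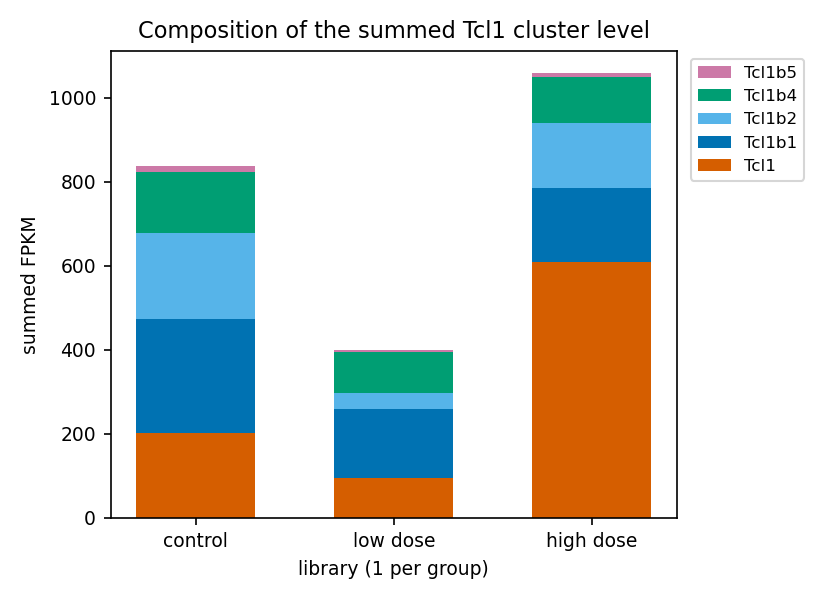
Summed FPKM of the Tcl1 cluster in each of the 3 libraries (1 library per group, no error bars), stacked by gene. The bars reach 838, 399 and 1059 FPKM, and the Tcl1 part at the base makes up 24.1%, 23.9% and 57.5% of them.

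The genes on either side of the cluster are described next. Tunar and Bdkrb2 had no row. Of the 5 nearest coding genes with a row on either side, 8 of 10 were expressed. At the low dose 2 of the 8 were at least 2-fold higher than control and 1 was lower, and at the high dose 0 were higher and 1 was lower. The shares among all expressed genes were 14.5% (higher) and 5.84% (lower) in the low dose library, and 9.51% and 5.18% in the high dose library, and nothing is read from 8 genes beside them. Glrx5, a mitochondrial glutaredoxin of iron-sulfur cluster assembly and the nearest flanking gene with a row (103107 bases from the cluster), was lower at both doses. It was at 78.0 FPKM in control, 24.4 FPKM at the low dose and 13.2 FPKM at the high dose, with log2 ratios to control of -1.64 and -2.47. At the high dose Glrx5 and Tcl1 thus lay on opposite sides of control. Atg2b, a lipid transfer protein of autophagy on the far side of Tcl1, had log2 ratios to control of 1.56 (low dose) and 0.63 (high dose), with most of the difference in 1 of its 4 rows, at 27.8, 98.8 and 47.9 FPKM. Gsc, a homeobox gene of the early embryo, was at 0.317, 1.71 and 1.55 FPKM. Dicer1, the nuclease of small RNA processing, stayed within 2-fold of control, with log2 ratios of 0.68 (low dose) and -0.27 (high dose). Syne3, D430019H16Rik, Gskip and Ak7 had levels under 4 FPKM throughout and ratios within the rule.

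**Figure D4:**
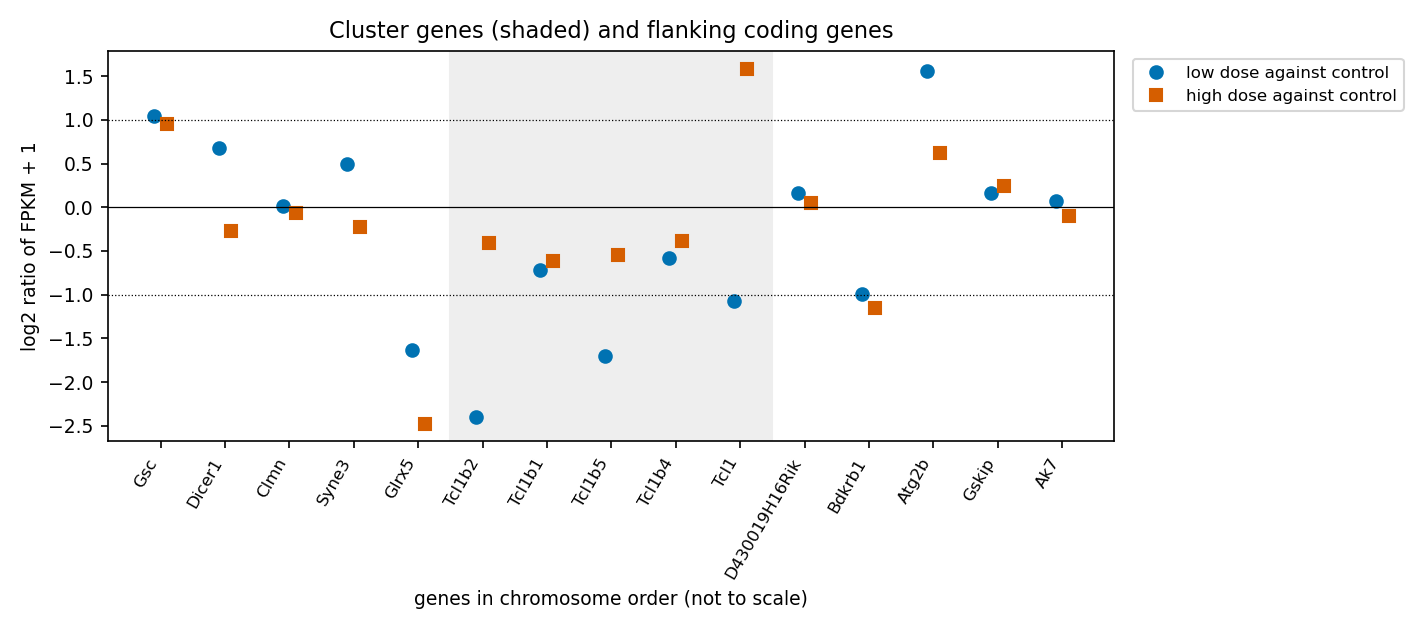
Log2 ratios of FPKM + 1 to control at the low dose (circles) and high dose (squares) for the cluster genes with rows (shaded) and 5 coding genes on each side, in chromosome order and not to scale; dotted lines mark 2-fold, and Clmn and Bdkrb1 averaged under 1 FPKM. Glrx5 is low at both doses (-1.64 and -2.47), and Tcl1 is the gene of the cluster with ratios on both sides of 0 (-1.08 and 1.59).

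Mtcp1, the TCL1 family gene outside the cluster (chromosome X, 75410444 to 75416588, minus strand), was at 18.2 FPKM in control, 16.3 FPKM at the low dose and 20.5 FPKM at the high dose. Its log2 ratios to control were -0.15 and 0.16, so it lay close to control where Tcl1 did not. Its coding sequence was identical to that of Tcl1 at 65.1% of the bases of the shorter sequence, about as close as the Tcl1b genes by this measure. No level for unrelated sequences was worked out beside it.

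Akt1 and Akt2, kinases of the AKT family that TCL1 binds, were low beside their coactivator. Akt1 was at 3.14, 3.97 and 3.86 FPKM and Akt2 at 1.36, 2.51 and 1.35 FPKM in control, low dose and high dose. Neither passed the 2-fold rule in any comparison. Of 34 genes listed for the AKT pathway, 25 were expressed. At either dose 2 of the 25 were higher than control and 0 were lower, beside 14.5% and 5.84% of all expressed genes (low dose) and 9.51% and 5.18% (high dose). The list's median log2 ratio was 0.45 (low dose) and 0.17 (high dose), beside 0.17 and 0.08 for all expressed genes. Pik3cd, a catalytic subunit of PI3-kinase, was at 2.18, 23.5 and 23.1 FPKM (log2 ratios 2.94 and 2.92). Pik3cb, another catalytic subunit, was at 88.3, 151 and 289 FPKM (0.76 and 1.70). Nearly all of the Pik3cb difference was in 1 of its 2 rows, at 86.4, 149 and 287 FPKM. The other row was at 1.92, 2.00 and 2.22 FPKM. Gsk3b, a kinase that AKT inhibits, was at 2.75, 7.57 and 5.98 FPKM (1.19 and 0.90), and Phlpp2, a phosphatase that removes an activating phosphate of AKT, at 0.455, 1.79 and 0.828 FPKM (0.94 and 0.33).

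Tcl1 is also known from lymphoid cells, so lymphocyte markers were read beside it. Cd79a, Cd79b and Cr2 of 10 B lymphocyte markers had no row, nor did Ptprc, the general leukocyte antigen. The summed level of the B lymphocyte list was 22.8, 53.7 and 19.9 FPKM in control, low dose and high dose, with Pax5 at 6.87, 32.3 and 7.33 FPKM, Ms4a1 at 3.53, 12.9 and 6.63 FPKM and Ighm at 10.0, 7.83 and 5.46 FPKM. Pax5 held most of that sum at the low dose, while Ighm was lower in both exposed libraries than in control. Of 10 T lymphocyte markers, 2 had no row and Cd5 alone reached 1 FPKM in any library. Granulosa and cumulus markers summed to 7.91, 18.2 and 14.9 FPKM, with Amh, Foxl2 and Tnfaip6 without a row. Fshr was at 5.61, 9.95 and 9.05 FPKM and Lhcgr, summed over 3 rows, at 0.0853, 3.86 and 1.61 FPKM. The other expressed markers were Inha, at 0.378, 2.55 and 1.03 FPKM, and Cyp19a1, at 1.42, 1.32 and 2.22 FPKM. The part of these cell types in the values of the cluster was not tested.

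Genes with the pattern most like that of Tcl1 were sought by the distance between their pairs of log2 ratios to control at the low and the high dose, among 6325 other names that averaged 5 FPKM or more. The likeness rests on 3 libraries, and both ratios share the control. Within a distance of 0.5 of Tcl1 lay 5 genes, namely Gm13212 (distance 0.148), Ky (0.161), Capns1, the small subunit of calpains (0.198), C87977 (0.229) and Gal3st2 (0.355). C87977 was the most abundant of them, at 93.8, 51.4 and 296 FPKM in control, low dose and high dose. Capns1 was at 11.9, 5.99 and 36.4 FPKM. The summed cluster had 103 genes within that distance, and the nearest 5 were Ppp6r3 (0.0962), Ly6e (0.121), 4930505N22Rik (0.133), Smg8 (0.139) and Gm11264 (0.147). Ppp6r3, a regulatory subunit of protein phosphatase 6, was at 11.2, 4.56 and 15.2 FPKM.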

How the data were processed

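Each of the 3 tables that the authors deposited holds a locus identifier, a gene name and an FPKM value, per the file headers. HISAT2, StringTie and the build mm10 are named in the submitters' processing notes; the sources used here give no versions, annotation, strand setting or read layout. Tables were joined by identifier, an absent row was taken as 0, 61 identifiers with different names between tables were left out, and FPKM was summed per gene name. Groups followed the exposure label. FPKM is not a count and each group had 1 library, so no test between groups was run. The counting of genes past 2-fold was checked on simulated tables with known changes. In these a fixed value was added to every gene and the only noise was counting noise. The check thus did not cover low genes or differences between replicate libraries, and its pass mark for recovery was set on changes larger than 2-fold. Members and lists were chosen with earlier results of these data known.

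Named genes were the members, 5 flanking coding genes on each side, and the 5 nearest patterns to Tcl1 and to the sum. Up to 4 expressed genes per list with the largest ratios to control were also named, with Akt1, Akt2 and Mtcp1 added. Not every gene under this rule is reported here. Of the marker lists only some genes are named, and a few of these, such as Nanog and Zscan4d, were not expressed and fall outside the rule. Positions and transcripts came from GENCODE M21 on GRCm38, and promoter windows from RefSeq on GRCm38.p6, where 6 of 6 members matched by symbol. Identities were counted over the shorter sequence after global alignment with Biopython 1.88. Depth was estimated by taking the most crowded 2% window of FPKM times length, among low genes with 1 transcript, as the worth of 1 read; it covers counting error only. Alternatives were other added values, filters, row choices, sizes and scalings, and single rows of Tcl1b1, the last chosen after seeing the data.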

Additional observations from a re-analysis of the deposited data

How the results depend on the processing

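The summed cluster level kept its direction and its side of the 2-fold rule under all 27 alternatives run. Some of these could not change it: the sum does not use the filters on low values, and every member row is in all 3 tables. The number of members past 2-fold stayed within 1.5 times under the other added values, row choices, filters and scalings, while a size rule of log2 2 gave 1 member at the low dose against control, 0 at the high dose against control and 1 at the high dose against the low dose. Of 141 alternatives for single members, 137 kept direction and side of the rule. The same settings could not change single members, nor could the largest row for genes with 1 row, so these counts overstate what was tried. The smaller row of Tcl1b1 alone gave -1.86 for high dose against low dose, where the sum gave 0.10, and passed the rule at both doses against control (-1.52 and -3.38); the rows differ as given above and the cause was not tested. Tcl1b5 at the high dose against the low dose was 0.74 with 5 FPKM added, in place of 1.15. Scaling moved the median of all genes at the low dose against control by -0.13 to -0.17 and gave, with a trimmed mean, 58.2% higher genes among those past the rule, in place of 71.3%; Tcl1 was then at -1.30. With 5 FPKM added, genes past the rule numbered 1057 (low dose against control, in place of 2476), 773 (high dose against control, 1784) and 822 (high dose against low dose, 1923), with only genes averaging 5 FPKM or more 1341, 990 and 951, and with a size of log2 2 649, 494 and 592. With 0.1 FPKM added the high dose comparison with control gave 2732. No paired analysis was possible because each group had 1 library. Tcl1b5 at the low dose, with roughly 110 reads, had the lowest depth among the genes with rows.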

Other observations

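Among the loci that the assembler numbered between Tcl1 and the copies, or just after them, 6 had no gene name. The most abundant was locus 10622, at 21.3 FPKM in control, 18.4 FPKM at the low dose and 19.7 FPKM at the high dose, so that it lay within 2-fold of control in both exposed libraries. Locus 10615 was at 14.3, 7.26 and 9.91 FPKM in the same order, and locus 10619 at 5.42, 7.19 and 7.39 FPKM. The tables give no coordinates, so whether any of them holds sequence of a cluster gene, Tcl1b3 included, was not tested.

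Of 15 genes listed for the 2-cell embryo, 3 were expressed. None of the 3 passed the 2-fold rule in any comparison, beside 5.18 to 14.5% of all expressed genes in each direction. Tcstv1, a gene of the 2-cell stage, was at 120 FPKM in control, 61.6 FPKM at the low dose and 74.7 FPKM at the high dose, and Tcstv3 at 47.1, 48.0 and 45.8 FPKM. Zscan4d was at 0.37, 0.29 and 0.20 FPKM. Of 10 genes listed for pluripotent cells, 3 were expressed, again with 0 of the 3 past the rule beside the same shares. Esrrb was at 19.4, 15.1 and 14.1 FPKM and Nanog at or under 0.032 FPKM in each library.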
